A study of Mus musculus with 12 samples.

Results

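Selenoproteins carry selenocysteine (Sec), an amino acid whose codon is UGA, a triplet that ends translation in nearly all other genes. The 10 selenoprotein genes described here were Gpx1, Gpx4, Txnrd1, Txnrd2, Selenof, Selenot, Selenok, Selenow, Selenop and Sephs2. They were taken by symbol from a count table of 22462 genes, by a rule that used no measured value. All 10 were found in the table.

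A ribosome inserts Sec at the UGA codon when a hairpin in the 3′ untranslated region of the mRNA, the SECIS element, recruits SECIS-binding protein and a dedicated elongation factor that delivers the Sec tRNA. At the same codon the ribosome can instead terminate. Most selenoproteins are redox enzymes with Sec in the active site. In pluripotent cells the family is best known for Gpx4, which reduces lipid peroxides and so protects membranes from ferroptosis, and for the thioredoxin reductases, which keep thioredoxin reduced.

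The libraries were made from mouse embryonic stem cells (ESCs), kept in the naive state in serum with the cytokine LIF and the kinase inhibitors PD0325901 and CHIR99021 (2i), and from epiblast-like cells (EpiLCs), a formative pluripotent state. EpiLCs were ESCs plated for 24 hours, then deprived of LIF and 2i and harvested about 56 hours later, and no other treatment or genotype separated the groups. From each state there were 3 libraries of RPFs (ribosome protected fragments, the stretches of mRNA that ribosomes shield from nuclease) and 3 of total RNA, 12 in all. The labels name no cell line and do not say whether libraries with different numbers came from separate cultures, so the p-values measure the spread between these libraries, and the study's methods list a single wild-type line with fluorescent reporters for the differentiation.

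Library totals ran from 2681439 (EpiLC RPF replicate 2) to 14655015 counts (EpiLC total RNA replicate 1), so that 3 counts were worth 1.12 and 0.205 CPM (counts scaled to a common library size) in these libraries. All 8 naive markers were lower and all 7 formative and primed markers higher in EpiLCs, in total RNA and in RPFs. The 10 selenoprotein genes together took 0.133% ± 0.003 of the counts in ESC total RNA, 0.153% ± 0.004 in EpiLC total RNA, 0.081% ± 0.003 in ESC RPFs and 0.109% ± 0.002 in EpiLC RPFs (SD, n = 3 each). All 10 passed the filter of at least 3 CPM in at least 3 libraries, and Selenop passed it only through the EpiLC libraries, in which it was high, so its difference between the cell types follows in part from the filter. Selenok reached 3 CPM in 2 ESC and 3 EpiLC total RNA libraries and in no RPF library, so it too passed through the EpiLC libraries, in which it was higher.

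The place of the Sec codon differed between the members and is shown for 8 of them, because the RPF values are later set beside it. Each stretch runs 5′ to 3′ along the coding strand, with the Sec codon in capitals and written as TGA, 15 nucleotides before it and up to 12 after it. The sequences came from the Gencode M21 transcripts on mm10.
Gpx1: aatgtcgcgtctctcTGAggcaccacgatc
Sephs2: tccggcatgaagggcTGAggctgcaaggtc
Selenop: cttcttcaagccagcTGAtacttgtgtctt
Selenow: gtgtattgtggagctTGAggctataagccc
Gpx4: aacgtggcctcgcaaTGAggcaaaactgac
Txnrd1: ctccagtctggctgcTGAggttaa
Txnrd2: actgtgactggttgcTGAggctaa
Selenok: ccaatggctggtggaTGAggaaggtaa

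The last 3 stretches end with the stop codon of their gene, taa, because the Sec codon lay close to the end of the protein. The base just after a stop codon is known to bear on how readily ribosomes terminate there. It was G in 8 of the 10 members, A in Selenof and T in Selenop. On mm10 the Sec codon was at chr9:108339451-108339453 in Gpx1, chr10:80054737-80054739 in Gpx4, chr10:82896037-82896039 in Txnrd1, chr16:18477772-18477774 in Txnrd2 and chr14:29973440-29973442 in Selenok, all on the plus strand. It was at chr15:3274848-3274850 on the plus strand in Selenop, where it was the first of 10 Sec codons. In Selenow it was at chr7:15920464-15920466 and in Sephs2 at chr7:127273731-127273733, both on the minus strand. All of these positions are annotated as coding exon.

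Reads were counted over the coding sequence without its first 45 nucleotides, and the share of this counted sequence that lay after the first Sec codon was computed for each gene. It was 0.33% in Txnrd1 (codon 612 of 613), 0.36% in Txnrd2 (codon 526 of 527) and 3.75% in Selenok (codon 92 of 94). It was 47.3% in Selenof (codon 93 of 162) and 49.6% in Gpx4 (codon 129 of 253 of its longest annotated form). It was over 50% in the other 5, with 81.2% in Selenot (codon 49 of 195), 82.9% in Gpx1 (codon 47 of 201), 88.0% in Selenop (codon 59 of 380), 89.0% in Sephs2 (codon 63 of 452) and 100% in Selenow, whose Sec codon 13 of 88 fell inside the uncounted start.

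Levels of different genes were compared as CPM scaled by TMM factors per kilobase of counted sequence, called the length-scaled level. In ESC total RNA the highest was Gpx1, cytosolic glutathione peroxidase, at 735 ± 45.1 (SD, n = 3, as for all levels here), percentile 99.5 of the genes tested. Selenof at 236 ± 5.69 and Txnrd1 at 234 ± 9.78 followed with overlapping libraries, then Sephs2 at 167 ± 11.7, Selenot at 104 ± 10.9 and Gpx4 at 100.1 ± 6.21, of which Selenot and Gpx4 overlapped. Selenow stood at 39.4 ± 4.87, Selenok at 12.3 ± 1.44, Txnrd2 at 3.22 ± 0.509 and Selenop at 0.772 ± 0.276, with no overlap between these neighbours. The family thus spanned from near the top of the transcriptome to percentile 3.69 of the genes tested.

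In EpiLC total RNA the order changed at the top, where Txnrd1, cytosolic thioredoxin reductase, reached 490.2 ± 15.8 and Gpx1 came next at 337 ± 14.4, with no overlap. Gpx4 moved below Selenow, to 32.4 ± 5.90 against 61.3 ± 21.3. Selenop rose to 18.4 ± 1.36 and overlapped with Selenok at 17.9 ± 1.80, and Txnrd2 at 7.32 ± 0.613 became the lowest. Taken as shares of the members' summed length-scaled level in total RNA, Gpx1 went from 45.1% ± 1.20 in ESCs to 23.2% ± 0.440 in EpiLCs and Txnrd1 from 14.3% ± 0.885 to 33.8% ± 1.18.

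In the RPF libraries, too, the share of Gpx1 was lower and that of Txnrd1 higher in EpiLCs. Gpx1 made up 27.3% ± 1.22 of the summed length-scaled RPF level in ESCs and 13% ± 1.51 in EpiLCs, and Txnrd1 24.8% ± 0.711 and 45.1% ± 1.78. Selenof, a resident of the endoplasmic reticulum that binds a glycoprotein folding sensor, held 23.5% ± 2.30 and 23.3% ± 1.34. In ESC RPFs the libraries of Gpx1 overlapped with those of Txnrd1, and those of Txnrd1 with those of Selenof, so the first 3 places could not be ordered beyond their spread.

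**Figure D1:**
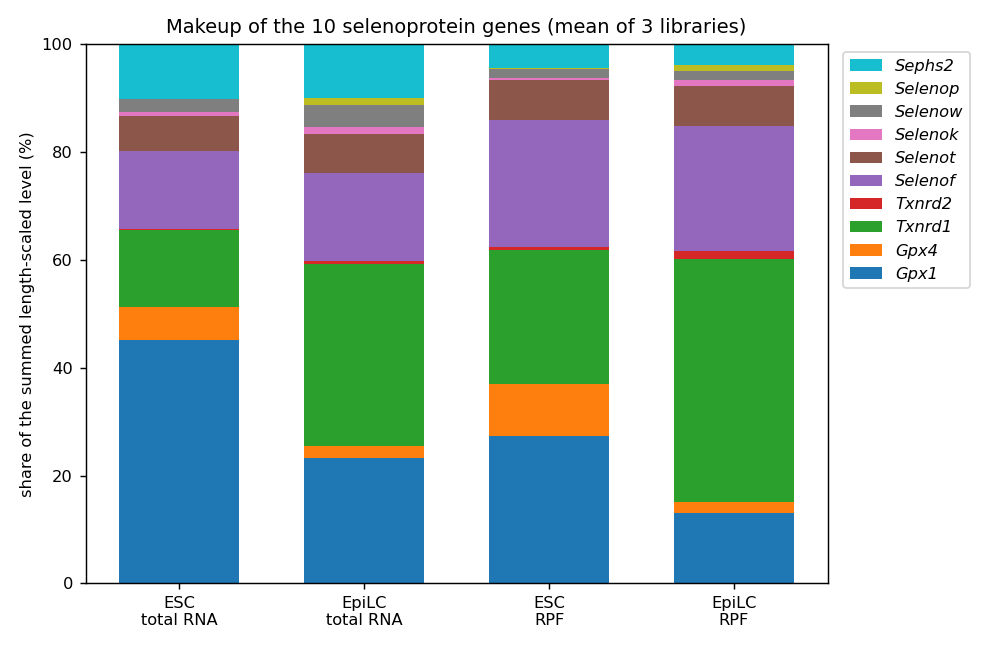
Stacked bars give each gene's share (%) of the summed length-scaled level of the 10 selenoprotein genes in the 4 groups, as the mean of 3 libraries. Gpx1 went from 45.1% to 23.2% of total RNA and from 27.3% to 13% of RPFs, and Txnrd1 went from 14.3% to 33.8% and from 24.8% to 45.1%.

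The first comparison asked how the mRNAs changed from ESCs to EpiLCs. Of the 10 members, 4 rose (Selenop, Txnrd2, Txnrd1 and Selenow) and 3 fell (Gpx4, Gpx1 and Sephs2) in total RNA at an adjusted p below 0.05, while 34.6% of all 11750 genes tested rose and 30.7% fell. The count of changed members was thus near the background of 65.4% in either direction. It includes Selenop, which entered the test only through its EpiLC libraries. With the study's additional limit of an absolute log2 change above 1, 3 rose and 2 fell, against 14.6% and 9.70% of all genes. The median log2 change of the members was 0.29 and that of all genes tested 0.03. In bulk libraries, a lower value from fewer cells that express a gene and from less RNA per cell cannot be told apart.

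The glutathione peroxidases Gpx1 and Gpx4 fell. Gpx1, which reduces hydrogen peroxide with glutathione, had 441, 405 and 392 CPM in ESC total RNA and 199, 186 and 183 CPM in EpiLC total RNA. All 3 EpiLC libraries lay below all 3 ESC libraries, and the log2 change was -1.12 ± 0.07 (SE, adjusted p = 1.56e-13). Gpx4, the phospholipid hydroperoxide glutathione peroxidase, had 77.7, 70.3 and 79.0 CPM in ESC total RNA and 27.2, 19.3 and 26.9 CPM in EpiLC total RNA. The groups did not overlap, and Gpx4 had the largest fall of the 10 members in total RNA, with a log2 change of -1.59 ± 0.12 (adjusted p = 2.50e-11).

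The thioredoxin reductases Txnrd1 and Txnrd2 rose. Txnrd1 had 410, 440.2 and 410.0 CPM in ESC total RNA and 889, 849 and 905 CPM in EpiLC total RNA. The groups were far apart and each library sat close to its group mean, with a log2 change of 1.07 ± 0.05 (adjusted p = 1.06e-15). Txnrd2, the mitochondrial form, was far less abundant, at a length-scaled level of 3.22 against 234 in ESCs. It had 6.26, 4.54 and 5.47 CPM in ESC total RNA and 12, 11.5 and 13.5 CPM in EpiLC total RNA. The groups did not overlap, with a log2 change of 1.18 ± 0.19 (adjusted p = 8.76e-06).

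Selenop had the largest change of the 10 members. It encodes selenoprotein P, a secreted carrier with many Sec residues that takes selenium from the liver to other tissues. Its counts were 7, 13 and 11 in ESC total RNA, or 0.509, 1.09 and 0.941 CPM, and 329, 123 and 167 in EpiLC total RNA, or 21.9, 19.7 and 19.1 CPM. The log2 change was 4.63 ± 0.39 (adjusted p = 1.20e-10), a 24.7-fold rise at percentile 99.3 of all genes tested. Selenop reached 3 CPM in 0 ESC libraries and was tested only because it was high in EpiLCs. Its change, p-value and rank thus follow in part from the filter.

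Markers of other cell types were read beside Selenop, since secretory and extraembryonic cells can express it. Of 11 markers of primitive and visceral endoderm 4 passed the filter and 2 of these rose in total RNA. Their summed level was 6.76 to 10.4 CPM over the ESC and 22.4 to 29.6 CPM over the EpiLC total RNA libraries, and Ttr and Afp had at most 3 counts in every library. Of 6 markers of fibroblast feeder cells 3 passed the filter and all 3 rose, with a summed level of 1.96 to 2.31 CPM in ESC and 12.8 to 14.9 CPM in EpiLC total RNA, and Postn had at most 3 counts in every library. Of 6 trophoblast markers 3 passed the filter, of which 1 rose and 2 fell in total RNA. The summed trophoblast markers were lower, at 50.5 to 58.1 CPM in ESC and 13.4 to 17.9 CPM in EpiLC total RNA. Those of mesoderm and definitive endoderm overlapped, at 6.07 to 7.42 CPM in ESC and at most 7.39 CPM in EpiLC total RNA. Of these 5 markers 1 passed the filter, Eomes, which fell and is also among the trophoblast markers. Those of neural ectoderm were higher, at 9.33 to 14.1 CPM in ESC and 19.0 to 21.7 CPM in EpiLC total RNA. The part of any of these cells in the rise of Selenop was not tested.

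Of the small thioredoxin-like selenoproteins Selenof, Selenot and Selenow, Selenow alone passed in total RNA. Selenof had 102, 104 and 107 CPM in ESC and 103, 113 and 101 CPM in EpiLC total RNA, and Selenot, a reductase of the endoplasmic reticulum, 59.7, 60.5 and 49.9 CPM and 59.6, 50.5 and 58.4 CPM. The groups overlapped for both, and their log2 changes of 0.01 ± 0.07 and 0.01 ± 0.11 did not pass the test. Selenow, a small cytosolic protein of muscle and brain, had 9.89, 7.74 and 8.64 CPM in ESC and 18.3, 13.7 and 8.80 CPM in EpiLC total RNA. Its log2 change of 0.65 ± 0.20 passed (adjusted p = 0.00666), but EpiLC replicate 3 lay among the ESC libraries, and without EpiLC total RNA replicate 1 the change was 0.29 (adjusted p = 0.242, against 5.66e-05 to 0.242 over the fits that left out a library).

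Selenok and Sephs2 completed the family. Selenok, a membrane protein of the endoplasmic reticulum that takes part in protein palmitoylation, had 3.13, 3.20 and 2.57 CPM in ESC and 4.80, 4.0 and 4.12 CPM in EpiLC total RNA. Although these groups did not overlap, its log2 change of 0.57 ± 0.26 missed the threshold (adjusted p = 0.0536). Sephs2, the selenophosphate synthetase that makes the selenium donor for Sec and is itself a selenoprotein, had 232, 202 and 223 CPM in ESC and 183, 192 and 197 CPM in EpiLC total RNA, and fell by 0.20 ± 0.07 on the log2 scale (adjusted p = 0.0199). The fall of Sephs2 was lost without ESC total RNA replicate 1 (-0.16, adjusted p = 0.105), ESC total RNA replicate 3 (-0.19, adjusted p = 0.0602) or EpiLC total RNA replicate 1 (-0.16, adjusted p = 0.124), over a range of 0.00310 to 0.124.

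**Figure D2:**
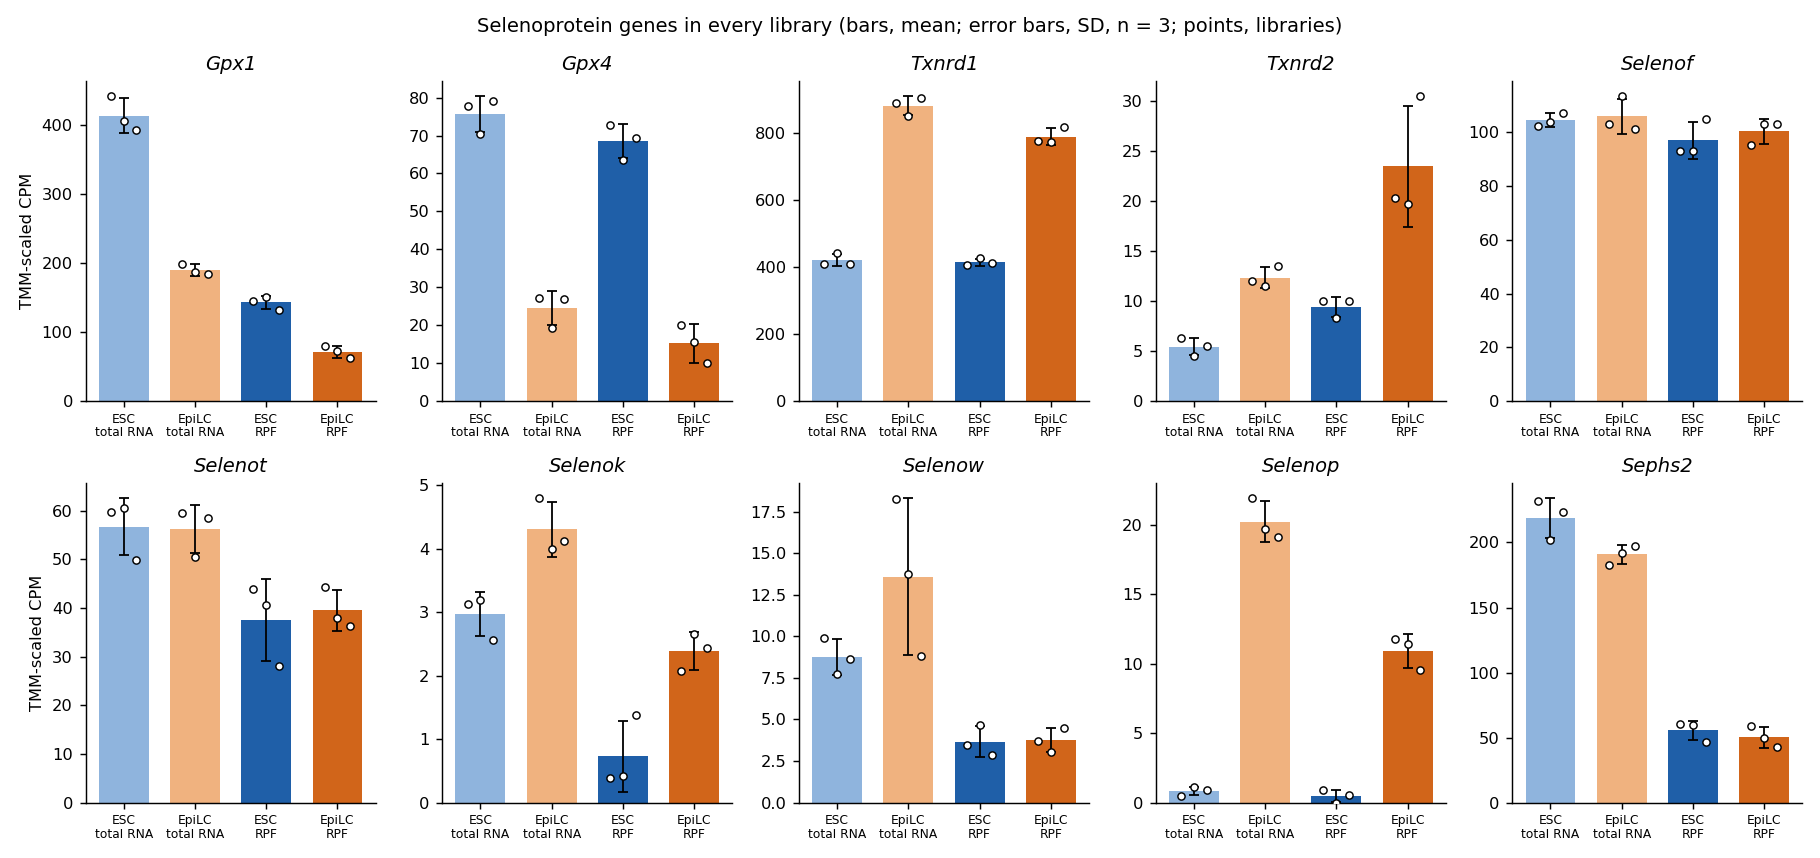
TMM-scaled CPM (linear axis from 0) of each selenoprotein gene in ESC total RNA, EpiLC total RNA, ESC RPFs and EpiLC RPFs, with bars for the mean, error bars for the SD (n = 3) and points for the libraries. Gpx1 and Gpx4 were lower and Txnrd1, Txnrd2 and Selenop higher in both kinds of EpiLC library, and the ESC and EpiLC libraries overlapped for Selenof, Selenot and Selenow.

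The second comparison asked whether the footprints of the same genes changed. In RPFs, 4 members rose (Selenop, Selenok, Txnrd2 and Txnrd1) and 2 fell (Gpx4 and Gpx1), against 31.1% and 28.7% of all genes tested and 59.8% in either direction. The share that changed was near that background. It includes Selenop and Selenok, which entered the test through their EpiLC libraries. The ESC and EpiLC libraries did not overlap for 7 members in total RNA and for 6 in RPFs, compared with 70.3% and 63.1% of all genes. The median log2 RPF change of the members was 0.18 and that of all genes 0.01, and it was 0.02 without ESC RPF replicate 3.

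The RPFs of Gpx4 dropped more than those of any other member. They stood at 72.8, 63.7 and 69.3 CPM in ESCs and at 20.1, 15.6 and 9.92 CPM in EpiLCs. The groups were well apart, the 3 EpiLC libraries spread widely around their mean, and the log2 change was -2.27 ± 0.20 (adjusted p = 5.92e-10), a 4.82-fold fall at percentile 3.85 of all genes. The RPFs of Gpx1 were 145, 151 and 132 CPM in ESCs and 79.2, 72.5 and 61.6 CPM in EpiLCs. Their log2 change of -1.0 ± 0.10 (adjusted p = 9.18e-09) lay close to that of the mRNA.

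Txnrd1 and Txnrd2 also gained footprints. Txnrd1 had 405, 426 and 411 CPM in ESC RPFs and 775, 774 and 818 CPM in EpiLC RPFs, with a log2 change of 0.94 ± 0.06 (adjusted p = 3.10e-13). Txnrd2 had 9.98, 8.28 and 9.98 CPM in ESC RPFs and 20.3, 19.7 and 30.5 CPM in EpiLC RPFs, with a log2 change of 1.31 ± 0.20 (adjusted p = 3.22e-06). Neither gene had overlapping groups, and for Txnrd2 the highest library was EpiLC replicate 3.

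Selenop and Selenok rose from few ESC footprints, and both entered the test through their EpiLC libraries. Selenop had 7, 0 and 6 counts in ESC RPFs, or 0.895, 0 and 0.549 CPM, and 57, 30 and 51 counts in EpiLC RPFs, or 11.8, 11.4 and 9.55 CPM. The log2 change was 4.74 ± 0.59 (adjusted p = 1.91e-07), and it was 3.84 without ESC RPF replicate 2, the library with 0 counts, in which 3 counts would be 0.628 CPM, and 5.38 without ESC RPF replicate 1. The summed RPF level of the endoderm markers was 12.1 to 14.1 CPM in ESCs and 41.9 to 45.7 CPM in EpiLCs, and that of the feeder markers 6.37 to 7.14 CPM and 34.3 to 41.0 CPM. Selenok had 3, 2 and 15 counts in ESC RPFs and 10, 7 and 13 counts in EpiLC RPFs, which were 0.384, 0.424 and 1.37 CPM and 2.07, 2.66 and 2.43 CPM. Its log2 change of 1.69 ± 0.54 (adjusted p = 0.00958) rested on these few reads and on a gene that entered the test through its EpiLC libraries. It was 1.25 without ESC RPF replicate 1, where it did not pass (adjusted p = 0.0700, over a range of 0.00409 to 0.0700), and 2.32 without ESC RPF replicate 3. The M21 annotation holds 6 named pseudogenes of Selenok and 1 each of Gpx4 and Selenot, and since only reads with a single mapping position were counted, the levels of these 3 genes are uncertain.

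The other 4 members did not pass in RPFs. Selenof had 93.1, 93.2 and 105 CPM in ESC and 95.2, 103 and 103 CPM in EpiLC RPFs, a log2 change of 0.03 ± 0.09. Selenot had 44.0, 40.5 and 28.1 CPM against 44.3, 37.9 and 36.3 CPM, a log2 change of 0.15 ± 0.16. Both overlapped between the cell types. Selenow had 27, 22 and 31 counts in ESC RPFs and 18, 8 and 24 in EpiLC RPFs, or 2.84 to 4.67 CPM and 3.03 to 4.49 CPM, with a log2 change of 0.21 ± 0.46. Sephs2 had 60.4, 59.4 and 47.0 CPM against 58.8, 49.3 and 42.7 CPM, a log2 change of -0.12 ± 0.13 (adjusted p = 0.455).

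**Figure D3:**
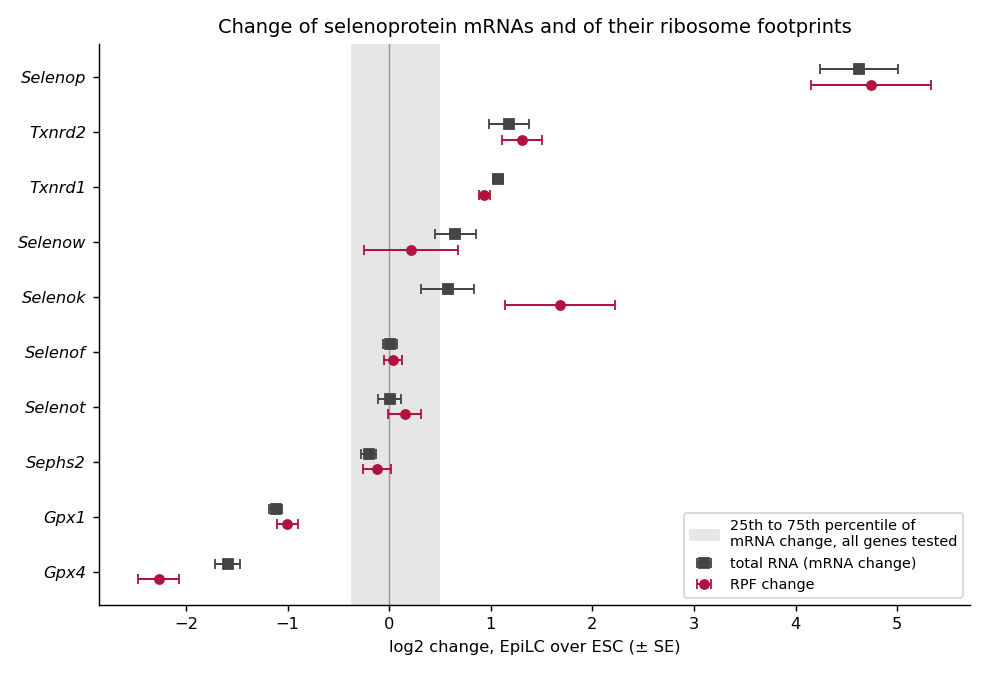
Log2 change from ESC to EpiLC (x axis) of total RNA (squares) and RPFs (circles) for the 10 selenoprotein genes with SE as error bars, and in grey the 25th to 75th percentile of the mRNA change of all genes tested (-0.37 to 0.49). Both values of a gene lay close together except in Gpx4, with -1.59 and -2.27, and in Selenow and Selenok, which had wide errors in RPFs.

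The third comparison asked whether translational efficiency (TE, RPF relative to total RNA) changed between the cell types, as the interaction of assay and cell type in the model. None of the 10 members passed in voom and limma, and none did with edgeR's quasi-likelihood test or DESeq2, while 1.20% of all genes passed. At an unadjusted p below 0.05 each of these 3 tests had 1 member, Gpx4. The log2 TE change of Gpx4 was -0.68 ± 0.24 (adjusted p = 0.168), with a 95% interval of -1.16 to -0.19 before adjustment, at percentile 3.60 of all genes. It was -0.31 without EpiLC RPF replicate 3 (adjusted p = 0.652) and -0.98 without EpiLC RPF replicate 1 (adjusted p = 0.0712), the ends of the range over the fits that left out a library. In simulated counts with the TE of 200 of 11750 genes changed, 74.5% were found at a log2 change of 1 and 96.0% at a log2 change of 2.

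The intervals showed what TE change each member could still have. They were narrow for Txnrd1, from -0.29 to 0.02 around -0.14, for Selenof, from -0.21 to 0.25 around 0.02, and for Gpx1, from -0.14 to 0.37 around 0.11. For Sephs2 the interval ran from -0.24 to 0.40 around 0.08, for Selenot from -0.26 to 0.56 around 0.15, and for Txnrd2 from -0.44 to 0.70 around 0.13. They were wide for the members with few footprints. These intervals were -1.48 to 0.60 around -0.44 for Selenow, -1.34 to 1.57 around 0.11 for Selenop and -0.13 to 2.35 around 1.11 for Selenok. A log2 TE change of -1 lay inside the intervals of Selenow and Selenop, and a change of 1 inside those of Selenop and Selenok. The interval of Gpx4, given above, also held -1. Changes of that size and direction could thus not be excluded for these genes. Leaving out 1 library moved the TE change of Selenow between -0.72 and -0.07 and that of Selenok between 0.71 and 1.78.

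The fourth comparison set RPFs against total RNA within each cell type, where both kinds of library were scaled to their own totals and 0 therefore marks an average gene. In ESCs, 5 members had fewer RPFs than total RNA (Sephs2, Selenok, Gpx1, Selenow and Selenot) and 1 had more (Txnrd2), against 34.5% and 33.0% of all genes and 67.5% in either direction. In EpiLCs, 8 had fewer (Sephs2, Selenow, Gpx1, Selenop, Selenok, Gpx4, Selenot and Txnrd1) and 1 had more (Txnrd2), against 33.0% and 31.3%, or 64.3% in either direction. Beyond a log2 ratio of 1 in size, 4 members were lower in ESCs (Sephs2, Selenok, Gpx1 and Selenow) and 3 in EpiLCs (Sephs2, Selenow and Gpx1), with Txnrd2 short of the limit in both, against 13.5% of all genes lower and 7.93% higher in ESCs and 14.4% and 9.39% in EpiLCs. The median of the members was -0.85 in ESCs and -0.84 in EpiLCs, and that of all genes -0.02 and -0.01. The 25th percentile of all genes was -0.62 in ESCs and -0.63 in EpiLCs, and the medians of the members lay below these values. In ESCs the median of the members was above this main-fit value with edgeR (-0.60), DESeq2 (-0.56) or without ESC RPF replicate 2 (-0.43). With at least 10 counts in every library it was also above, at -0.14 in ESCs and -0.51 in EpiLCs. Without EpiLC RPF replicate 3 it was -0.60 in EpiLCs. The 25th percentile of all genes was not computed for these fits, so whether the position was lost in them is not known.

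Sephs2 and Gpx1 were low with small errors. Sephs2 stood at a mean of 219 CPM in ESC total RNA and 55.6 CPM in ESC RPFs, a log2 ratio of -2.01 ± 0.10 (adjusted p = 3.43e-15) at percentile 2.64 of all genes. In EpiLCs it stood at 191 and 50.3 CPM, a log2 ratio of -1.93 ± 0.12 (adjusted p = 6.27e-13) at percentile 3.25. No RPF library of Sephs2 reached any total RNA library of the same cells. Gpx1 had a log2 ratio of -1.55 ± 0.07 in ESCs (adjusted p = 1.53e-15) and -1.43 ± 0.10 in EpiLCs (adjusted p = 5.58e-12), at percentiles 5.81 and 7.54.

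Selenow and Selenop were low as well, with larger errors. Selenow had log2 ratios of -1.36 ± 0.32 in ESCs (adjusted p = 5.49e-04) and -1.80 ± 0.39 in EpiLCs (adjusted p = 2.68e-04). Selenop had a log2 ratio of -0.92 ± 0.21 in EpiLCs (adjusted p = 5.28e-04), and in ESCs, where it had 31 counts of total RNA and 13 of RPFs over 3 libraries each, -1.04 ± 0.67 (adjusted p = 0.176), which was -0.15 without ESC RPF replicate 2. Selenot followed with -0.67 ± 0.13 in ESCs (adjusted p = 5.90e-05), which was -0.39 without ESC RPF replicate 3 (adjusted p = 0.00863), and -0.52 ± 0.15 in EpiLCs (adjusted p = 0.00412), and the second of these did not pass after a correction for GC content (-0.23, adjusted p = 0.169, over a range of 0.00111 to 0.169 among the settings).

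Selenok, Gpx4, Selenof and the reductases differed from one another. Selenok had a log2 ratio of -1.97 ± 0.47 in ESCs (adjusted p = 6.42e-04), which was -2.62 without ESC RPF replicate 3, and -0.86 ± 0.37 in EpiLCs (adjusted p = 0.0473), a call that 10 of the 12 fits without a library and 6 of 11 other settings lost, with an adjusted p of 0.0325 to 0.162 over them. Gpx4 stood near 0 in ESCs (-0.13 ± 0.10, adjusted p = 0.258), where a GC correction gave -0.26 (adjusted p = 0.0195, over a range of 0.0128 to 0.558 among the settings), and at -0.81 ± 0.21 in EpiLCs (adjusted p = 0.00181). Without EpiLC RPF replicate 3, its lowest library, the EpiLC ratio of Gpx4 was -0.42 (adjusted p = 0.105, over a range of 4.12e-04 to 0.105). Selenof was near 0 in both, with -0.09 ± 0.07 and -0.07 ± 0.08.

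Txnrd2 had the highest ratio of the 10 members in both cell types. Txnrd1 had -0.02 ± 0.05 in ESCs and -0.16 ± 0.05 in EpiLCs (adjusted p = 0.00872), and the second value did not pass without EpiLC RPF replicate 1 (-0.12, adjusted p = 0.0965) or EpiLC RPF replicate 2 (-0.12, adjusted p = 0.0966), over a range of 0.00363 to 0.0966. Txnrd2 had 0.83 ± 0.21 in ESCs (adjusted p = 0.00149) and 0.96 ± 0.17 in EpiLCs (adjusted p = 3.84e-05), at percentiles 88.0 and 89.5 of all genes.

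**Figure D4:**
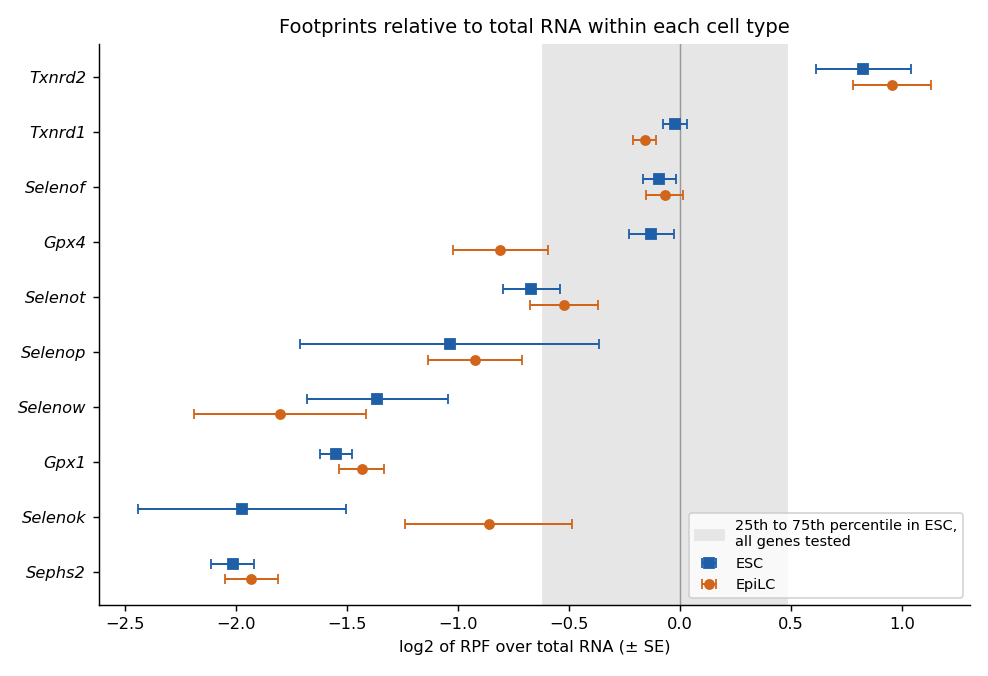
Log2 of RPF over total RNA (x axis) in ESCs (squares) and EpiLCs (circles) for the 10 selenoprotein genes, with SE as error bars and in grey the 25th to 75th percentile of all genes tested in ESCs (-0.62 to 0.48). Sephs2, Selenok, Gpx1, Selenow and Selenop lay left of the grey band in both cell types, and Txnrd2 lay right of it.

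These ratios were set beside the place of the Sec codon, and whether termination at this codon had a part in them was not tested. The 5 members with over 50% of the counted sequence after the Sec codon (Sephs2, Gpx1, Selenow, Selenop and Selenot) had log2 ratios of -2.01 to -0.67 in ESCs, median -1.36, and of -1.93 to -0.52 in EpiLCs, median -1.43. Gpx4 and Selenof, with close to 50%, had -0.13 and -0.09 in ESCs and -0.81 and -0.07 in EpiLCs. The share of Gpx4 was that of its longest annotated form. Which form these cells make was not examined, so its place just under the limit of 50% is uncertain. The 3 members with under 5% had -0.02 (Txnrd1), 0.83 (Txnrd2) and -1.97 (Selenok) in ESCs. Selenok was thus close to Sephs2 in ESCs, with a far larger error, although its Sec codon lies at the end. Spearman's rho between the share after the Sec codon and the log2 ratio was -0.66 in ESCs and -0.84 in EpiLCs over the 10 genes, and with the counted length it was 0.41 and 0.26. These are descriptions across genes that share the same libraries, and the limits of 5% and 50% were set with the values known. The rho values with the share also depend on the uncertain share of Gpx4.

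The other selenoprotein genes gave a less clear picture. Of 14, 10 passed the filter, and the 3 with over 50% of the counted sequence after the Sec codon were Selenoh at -0.92, Gpx3 at 0.20 and Selenom at 0.29 in ESCs, and -0.43, 0.36 and -0.08 in EpiLCs. The 4 with under 5% (Selenoo, Txnrd3, Selenoi and Selenos) ran from -0.13 to 1.05 in ESCs and from -0.20 to 1.41 in EpiLCs. Over these 10 genes rho with the share after the Sec codon was -0.31 in ESCs and -0.41 in EpiLCs, and over all 20 it was -0.63 and -0.67. The 4 measured relatives that carry cysteine in place of Sec or belong to the same enzyme families had positive log2 ratios in both cell types. These ran from 0.32 to 1.09 in ESCs, with a median of 0.61 in ESCs and 0.88 in EpiLCs. Only 2 of the 4 passed as higher in each cell type, against 33.0% of all genes in ESCs and 31.3% in EpiLCs. A difference between Sec and cysteine was not tested.

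Short genes in general lay higher than long genes. The median log2 ratio in ESCs was 0.55 over 258 genes with under 300 counted nucleotides, 0.51 over 1224 genes of 300 to 600, 0.20 over 4679 genes of 600 to 1500 and -0.31 over 5589 longer genes. Gpx1 (561 counted nucleotides), Selenow (222) and Selenok (240) were below the 25th percentile of genes of their own length, -0.07 in both classes. Sephs2, with 1314, was below the -0.35 of its class. Selenof (444), Selenot (543) and Selenop (1098) were also below the 25th percentile of their classes in ESCs. Gpx4 (756), Txnrd1 (1797) and Txnrd2 (1685) were above it. The form of Gpx4 that these cells make was not examined, so its length class and its length-scaled level are uncertain. Whether length had a part in the ratios of the members was not tested.

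**Figure D5:**
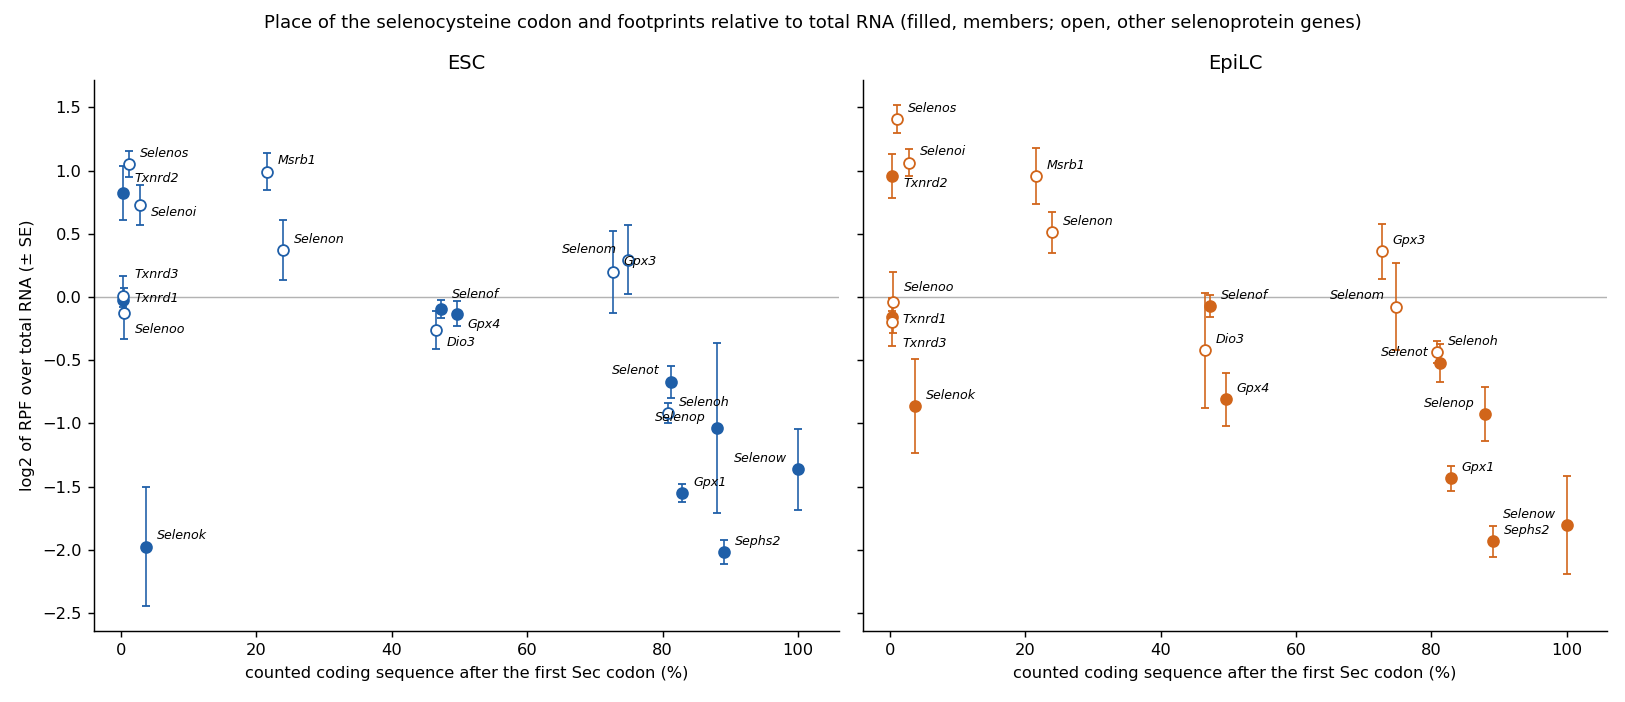
Log2 of RPF over total RNA with SE (y axis) against the share of the counted coding sequence after the first Sec codon (x axis, %) in ESCs and EpiLCs, for the 10 members (filled) and 10 other selenoprotein genes (open). The 5 members at the right end all lie below 0, with Sephs2 at -2.01 and -1.93, and Selenok is low at the left end, with -1.97 and -0.86.

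A list of 13 genes held those that make and insert Sec, the selenoprotein P receptors Lrp2 and Lrp8, and Prdx6. All were tested, of which 5 rose and 3 fell in total RNA and 6 rose and 3 fell in RPFs, near the background of 65.4% and 59.8% in either direction. The largest RPF change among them was in Lrp2 (megalin), an endocytic receptor that takes up selenoprotein P, with 171, 154 and 138 CPM in ESC RPFs and 2453, 2593 and 2441 CPM in EpiLC RPFs, a log2 change of 4.02 ± 0.16 (adjusted p = 1.46e-16). Lrp8, the other receptor of selenoprotein P, rose by 1.64 ± 0.19 in RPFs (adjusted p = 5.93e-08), and Pstk, the kinase that acts on the serine-loaded Sec tRNA, by 0.70 ± 0.11 (adjusted p = 6.07e-06). The carrier Selenop rose too, but it passed the filter only through the EpiLC libraries, and both receptors were named for their large RPF changes. A link between these rises was not tested.

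Among the other selenoprotein genes, 3 rose and 2 fell in total RNA and 5 rose and 2 fell in RPFs of the 10 tested, against 65.4% and 59.8% of all genes in either direction. Dio3, which inactivates thyroid hormone, had a log2 RPF change of -2.79 ± 0.40 (adjusted p = 1.65e-06), Selenoi, an ethanolamine phosphotransferase, 2.03 ± 0.14 (adjusted p = 3.26e-12), and Selenon, of the endoplasmic reticulum, 1.93 ± 0.21 (adjusted p = 3.06e-08). Dio3 passed the filter through its ESC libraries, in which it was high, so its fall follows in part from the filter. Gpx3, the plasma glutathione peroxidase, rose by 1.72 ± 0.25 in total RNA (adjusted p = 1.35e-06) and 1.89 ± 0.30 in RPFs (adjusted p = 7.47e-06), unlike Gpx1 and Gpx4, and Txnrd3, the thioredoxin reductase of testis, did not pass in total RNA (0.21 ± 0.14, adjusted p = 0.202) or RPFs (0.01 ± 0.20, adjusted p = 0.971). Gpx3 and Txnrd3 were singled out after their values were seen. Selenoh, a small nuclear selenoprotein, was the only one of the 20 measured selenoprotein genes that passed for TE. It had 65.2, 70.7 and 74.0 CPM in ESC RPFs and 108, 94.1 and 86.7 CPM in EpiLC RPFs with little change in total RNA, a log2 TE change of 0.48 ± 0.12 (adjusted p = 0.0446).

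In the wider glutathione and thioredoxin system 27 of 28 genes were tested. In total RNA 7 rose and 12 fell, against 34.6% and 30.7% of all genes, and in RPFs 11 rose and 12 fell, against 31.1% and 28.7%. Glrx, a glutaredoxin, had the largest RPF change, from 9.70 to 12.7 CPM in ESCs to 0 to 0.828 CPM in EpiLCs, a log2 change of -4.64 ± 0.60 (adjusted p = 3.27e-07). Gss, which joins glycine to the glutathione precursor, fell by 1.97 ± 0.13 on the log2 scale in RPFs (adjusted p = 3.37e-12). Gclc and Gclm, also of glutathione synthesis, rose by 1.38 ± 0.09 (adjusted p = 1.10e-12) and 1.27 ± 0.09 (adjusted p = 2.36e-11) in RPFs. Gclc and Gclm were singled out after their values were seen. Sod2, the mitochondrial superoxide dismutase, fell by 1.96 ± 0.08 (adjusted p = 7.52e-16). Sod1, its cytosolic counterpart, was the single gene of this list that passed for TE, with -0.37 ± 0.09 (adjusted p = 0.0336). Of the relatives with cysteine, Gpx8 rose by 2.00 ± 0.20 in RPFs (adjusted p = 5.84e-09).

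The genes most like Gpx4 over the 12 libraries, by Pearson's r of log2 CPM, were Tns1 (0.99), C77080 (0.99) and Gna13 (0.99). These libraries fall into 4 groups that differ widely, so the likeness mainly describes the group pattern. The log2 changes of the 3 genes were -3.25, -1.21 and -0.87 in total RNA and -4.21, -1.48 and -1.05 in RPFs. They were chosen for their likeness to Gpx4 in these same libraries, so a pattern shared with Gpx4 follows from the choice.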

How the data were processed

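The authors deposited raw counts per gene for 12 libraries made with a ribosome profiling kit. Per the labels, the submitters' processing notes and the study's methods, reads were trimmed with cutadapt 1.14, with RPF reads held to a shorter length window than total RNA reads, aligned to mm10 with STAR 2.5.3a and counted with featureCounts 1.5.3 by the 5′ read end on the sense strand, over coding sequence without its first 45 nucleotides and for reads with a single mapping position. The treatment of PCR duplicates is not given in the sources used here. Intervals rest on the spread between libraries, and floors cover counting error only.

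The deposited counts were scaled with TMM factors (edgeR 4.0.16, R 4.3.3). Genes with at least 3 CPM in at least 3 libraries (11750 of 22462) entered 1 voom and limma 3.58.1 model of the 4 groups, with a prior count of 0.5 and Benjamini-Hochberg adjustment over all genes tested. A gene passed at an adjusted p below 0.05 (2-sided). The TE change was the interaction of assay and cell type, fitted without pairing RPF and total RNA libraries. All printed adjusted p-values come from this fit unless another setting is named. CPM values are TMM-scaled. Sec codons were read from Gencode M21 transcripts on mm10. The model was tested on simulated counts.

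Alternatives were edgeR's quasi-likelihood test, DESeq2 1.42.0, limma-trend, library weights, library totals, RLE size factors, other filters, the fold limit of the study, a replicate block, RPF and total RNA joined by replicate number, a GC correction, and leaving out each library. Named genes were all 10 members, up to 3 genes of each other list with the largest RPF change among those that passed without overlap, each list gene that passed for TE, and the 3 genes most correlated with Gpx4. The members and lists were chosen with earlier results of these data known. Proteins were not analysed here.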

Additional observations from a re-analysis of the deposited data

How the results depend on the processing

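Of 370 alternative values of the counts and medians of the members, 345 were classed as the same, 15 as moved, 7 as weaker and 3 as reversed. Those classed as moved kept their sign and differed in size. Of 50 member results with a test, 27 stayed on the same side of the threshold with the same direction in every setting. Requiring at least 10 counts in every library, which by construction left out Selenok, Selenow and Selenop, gave 2 members higher in total RNA and 2 in RPFs, 3 lower in the ratio of RPF to total RNA in ESCs (median -0.14) and 5 in EpiLCs (median -0.51), and a median mRNA change of -0.017. With the fold limit, 0 members were higher in RPF over total RNA in either cell type, and 3 were lower in EpiLCs. The median ratio in ESCs was -0.60 with edgeR and -0.56 with DESeq2. The median TE change of 0.10 was 0.046 with edgeR, 0.055 with the replicate block, 0.056 with the GC correction and 0.048 with both. What caused them was not tested.

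Leaving out 1 library at a time moved the median TE change between -0.027 and 0.14, the median mRNA change between 0.16 and 0.34, the median RPF change between 0.023 and 0.23, and the median ratio between -1.08 and -0.43 in ESCs and between -0.91 and -0.60 in EpiLCs. Counts of members ran from 3 to 4 higher and from 2 to 3 lower in total RNA, from 3 to 4 higher in RPFs, and from 6 to 8 lower in the EpiLC ratio. Values near 0 changed sign. The mRNA change of Selenof ran from -0.027 to 0.044 and that of Selenot from -0.082 to 0.070. The RPF change of Selenof ran from -0.047 to 0.075, of Selenot from -0.14 to 0.27 and of Selenow from -0.028 to 0.30. The TE change of Selenop ran from -0.75 to 0.79, of Txnrd2 from -0.12 to 0.26, of Selenof from -0.020 to 0.10, of Selenot from -0.11 to 0.30 and of Sephs2 from -0.067 to 0.23, and the ESC ratio of Txnrd1 from -0.043 to 0.020.

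Among the other settings, the mRNA change of Selenof was -0.026 with DESeq2, -0.031 with RLE size factors, -0.024 with no filter and -0.013 with at least 10 counts. That of Selenot was -0.0079 with edgeR, -0.052 with DESeq2, -0.013 with limma-trend, -0.036 with RLE size factors, -0.029 with no filter, -0.017 with at least 10 counts, -0.010 with the replicate block and -0.0053 with GC correction and block. The TE change of Selenop was -0.32 with edgeR and -0.29 with DESeq2, and the ESC ratio of Txnrd1 was 0.019 with DESeq2 and 0.018 with RLE size factors. The fall of Sephs2 mRNA was lost with edgeR (adjusted p = 0.0660), limma-trend (adjusted p = 0.141) and the GC correction (adjusted p = 0.125), the rise of Selenow mRNA with limma-trend (adjusted p = 0.0908), the EpiLC ratio of Selenop with limma-trend (adjusted p = 0.268) and that of Txnrd1 with DESeq2 (adjusted p = 0.105) and RLE size factors (adjusted p = 0.0816). Selenok mRNA passed with library weights (adjusted p = 0.0396) and the GC correction (adjusted p = 0.0286).

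Replicate numbers are shared between groups, and the study describes the total RNA as matched to the RPFs. Deviations of libraries with the same number correlated at -0.01 to 0.04 between cell types and at -0.18 to 0.16 between RPF and total RNA. Such low correlations do not show that the libraries were unmatched. The main fit did not pair them, and the fits that used the numbers were alternatives. With the replicate block 4 members rose in total RNA, 0 passed for TE, and the EpiLC ratio of Selenok was -0.84 (adjusted p = 0.0526). Over all genes, TE calls numbered 141, and 261 with the block, 285 with DESeq2, 75 with limma-trend and 67 with no filter. They numbered 200 with RPF and total RNA joined by replicate number. The share of higher TE calls was 47.5%, against 62.2% with library totals, 59.7% with no filter and 58.6% with at least 10 counts. Depth limited Selenok, Selenow and Selenop most, with 0 to 31 counts in each ESC RPF library.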
